A study of Mus musculus with 4 samples.

Results

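The genes described here drive DNA replication and cell division, and they were read in the liver of 4 adult mice. The list holds 34 genes, fixed by name: S-phase genes, genes of G2 and mitosis, the G1 cyclin Ccnd1 and the inhibitory genes Cdkn1a and Cdkn3. A gene was counted as measured when at least 1 probe set carried its symbol and no other. That held for 32 of the 34, out of 12393 genes measured in the same way on the array, and Ccnb1 and Cdkn3 were not analysed here. The 32 were read by 59 probe sets, and 18 of them by 2 or more, and a gene was then represented by its brightest probe set (by mean log2 signal).

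All 4 livers came from male mice of strain C57BL/6 that overexpress ABCA1, the membrane transporter that hands cellular cholesterol to apolipoprotein A-I. The mice were 5 to 6 months old and ate the NIH36 diet. The series title places them on an LDL receptor -/- background and the sample descriptions on a +/- background, and this was not resolved. Neither the promoter that drives the transgene nor its species is given in the sources used here. The series was designed against wild-type livers, whose arrays were not analysed here, so the mice are compared with each other and no effect of the transgene is given. The labels call the samples biological replicates without naming animals. They are called mouse 1 to mouse 4, and all p-values rest on these 4 samples. Those for excess spread set a probe set's variance between the samples against the variance usual at its level. Those for agreement set the difference between samples against the disagreement of a gene's probe sets.

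A resting hepatocyte sits outside the cell cycle, in G0. To divide, a cell makes cyclin D and then cyclin E, which switch on the kinases that inactivate the retinoblastoma proteins and free E2F transcription factors to induce the replication genes. The MCM ring is loaded on DNA as an inactive helicase before S phase and unwinds the template during it. Genes of G2 and mitosis follow later, largely through promoters with a CCAAT box, bound by NF-Y, and a cell cycle homology region, through which the DREAM complex holds them silent in G0. In rodent liver most hepatocytes can re-enter the cycle after partial hepatectomy, whereas in the intact adult organ mitotic figures are rare.

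Promoter sequences of the replication and mitotic genes were compared for 3 motifs. The RefSeq table of promoters (GRCm38.p6, from 250 bases before to 50 after each start) held 27 of the 34 genes. They were searched on both strands for the CCAAT box, for the homology motif TTTGAA with its variant TTCGAA, and for an E2F core spelled TTCCCGC or else TTGGCGC. Of 13 mitotic genes 10 held a CCAAT box and the homology motif in the same promoter, as did 2 of 12 replication genes and 8.61% of the 27025 genes in the table. The E2F core was in 3 of 13 mitotic genes and in 6 of 12 replication genes, against 7.79% of all genes. A CCAAT box alone was in 11 of 13 mitotic and 8 of 12 replication genes, against 41.1% of all genes. In Ccnb1 and Mcm7 a CCAAT box shared bases with an E2F core. The matches are matches of letters and say nothing on whether a factor was bound in these livers.

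Ccnb2 and Cdk1 are shown as mitotic genes with both motifs, and Mcm5 and Mcm6 as helicase genes with E2F cores. They are printed 5′ to 3′ on the strand of the gene, with each motif in capitals. On the opposite strand a CCAAT box reads ATTGG, the homology motif TTTGAA reads TTCAAA, and the E2F cores read GCGGGAA and, for the other spelling, GCGCCAA.
Ccnb2, chr9:70421505-70421804, minus strand: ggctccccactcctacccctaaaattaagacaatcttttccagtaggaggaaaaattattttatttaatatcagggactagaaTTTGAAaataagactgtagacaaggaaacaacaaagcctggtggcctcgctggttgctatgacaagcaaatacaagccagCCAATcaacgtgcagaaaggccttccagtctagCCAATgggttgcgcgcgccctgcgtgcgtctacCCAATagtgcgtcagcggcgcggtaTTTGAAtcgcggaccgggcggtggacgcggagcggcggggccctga
Cdk1, chr10:69352863-69353162, minus strand: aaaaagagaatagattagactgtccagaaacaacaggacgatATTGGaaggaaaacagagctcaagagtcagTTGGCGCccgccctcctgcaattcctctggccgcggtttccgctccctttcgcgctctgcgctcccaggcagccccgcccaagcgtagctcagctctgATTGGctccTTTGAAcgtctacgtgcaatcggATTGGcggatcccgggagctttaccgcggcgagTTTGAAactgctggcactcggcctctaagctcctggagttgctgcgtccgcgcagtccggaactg
Mcm5, chr8:75109259-75109558, plus strand: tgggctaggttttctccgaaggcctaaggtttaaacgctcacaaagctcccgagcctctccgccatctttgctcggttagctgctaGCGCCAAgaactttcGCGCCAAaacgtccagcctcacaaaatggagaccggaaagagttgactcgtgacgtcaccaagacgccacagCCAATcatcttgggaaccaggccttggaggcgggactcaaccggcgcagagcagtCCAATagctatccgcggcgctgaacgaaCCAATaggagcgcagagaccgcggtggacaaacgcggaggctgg
Mcm6, chr1:128359656-128359955, minus strand: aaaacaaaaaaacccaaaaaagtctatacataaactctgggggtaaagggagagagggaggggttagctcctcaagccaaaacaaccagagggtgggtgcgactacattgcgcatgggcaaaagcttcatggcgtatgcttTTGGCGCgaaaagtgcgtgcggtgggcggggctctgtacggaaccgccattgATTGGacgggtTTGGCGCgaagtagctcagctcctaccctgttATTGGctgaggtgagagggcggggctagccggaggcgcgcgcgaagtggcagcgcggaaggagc
Ccnb2 carried 3 CCAAT boxes, each 33 bases from the next, with 1 homology motif just past the start and another 167 bases before it. Cdk1 carried a pair of CCAAT boxes 32 bases apart and a further box 208 bases before the start, homology motifs 15 and 71 bases before the start, and 1 E2F core at 178. Mcm5 and Mcm6 had 2 E2F cores each, CCAAT boxes and no homology motif. The helicase genes were not alike in this, since Mcm2 had 0 E2F cores and 1 homology motif, and 1 of the 2 promoter entries of Mcm7 also held a homology motif. A distance of 31 to 33 bases between neighbouring CCAAT boxes, a range chosen after the distances were seen, occurred in 4 of 13 mitotic genes (Aurka, Ccnb1, Ccnb2 and Cdk1), in 0 of 12 replication genes and in 1.06% of all genes.

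**Figure D1:**
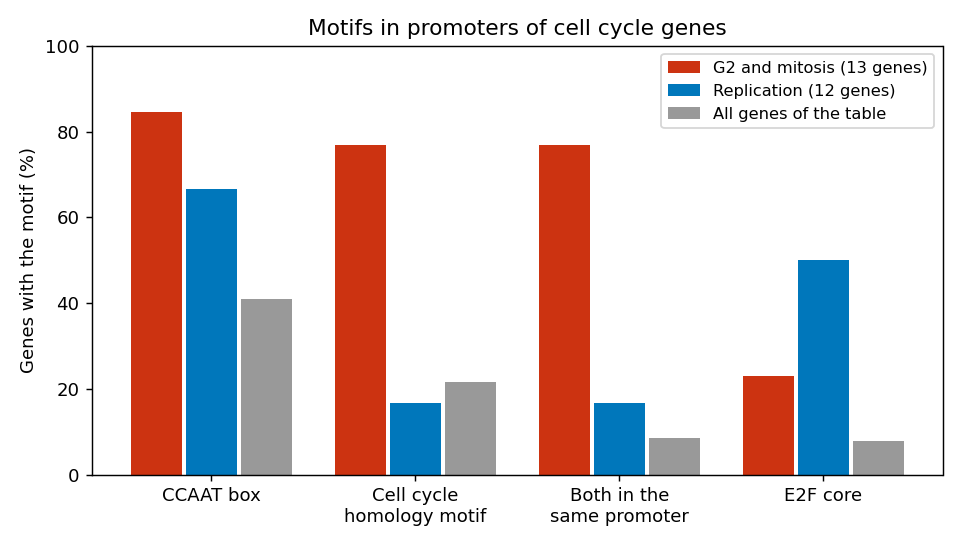
Percentage of genes whose promoter holds a CCAAT box, the cell cycle homology motif, both in the same promoter, or an E2F core, for 13 genes of G2 and mitosis, 12 replication genes and all 27025 genes of the promoter table. Mitotic genes stand out for the CCAAT box together with the homology motif (10 of 13), and replication genes for the E2F core (6 of 12).

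A signal of 64 was the level used to split the genes. Mean signal was at least 64 for 28 of 32 genes, against 85% of all 12393 genes, and 23 of 32 reached 64 in each of the 4 mice, against 77.1% of all genes. By role, 13 of 15 replication genes and 13 of 15 mitotic genes had a mean of at least 64. In all 4 mice 11 of 15 replication genes and 10 of 15 mitotic genes reached it. The roles parted at 2 times that level, where the count was 11 of 15 for replication and 6 of 15 for mitosis, against 75.2% of all genes. Probe sets bind with different strength, so these counts describe the arrays and do not rank transcript amounts, and no detection call was used. The 4 genes under 64 were Cdc6, Bub1b, Bub1 and Tyms. The last of them lay next to the split with a mean of 63.8, Bub1 came next at 45.65, and the nearest genes above it were Mcm5 at 75.4 and Cdk1 at 82.5. In whole liver, fewer cycling cells and less RNA per cell cannot be told apart.

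**Figure D2:**
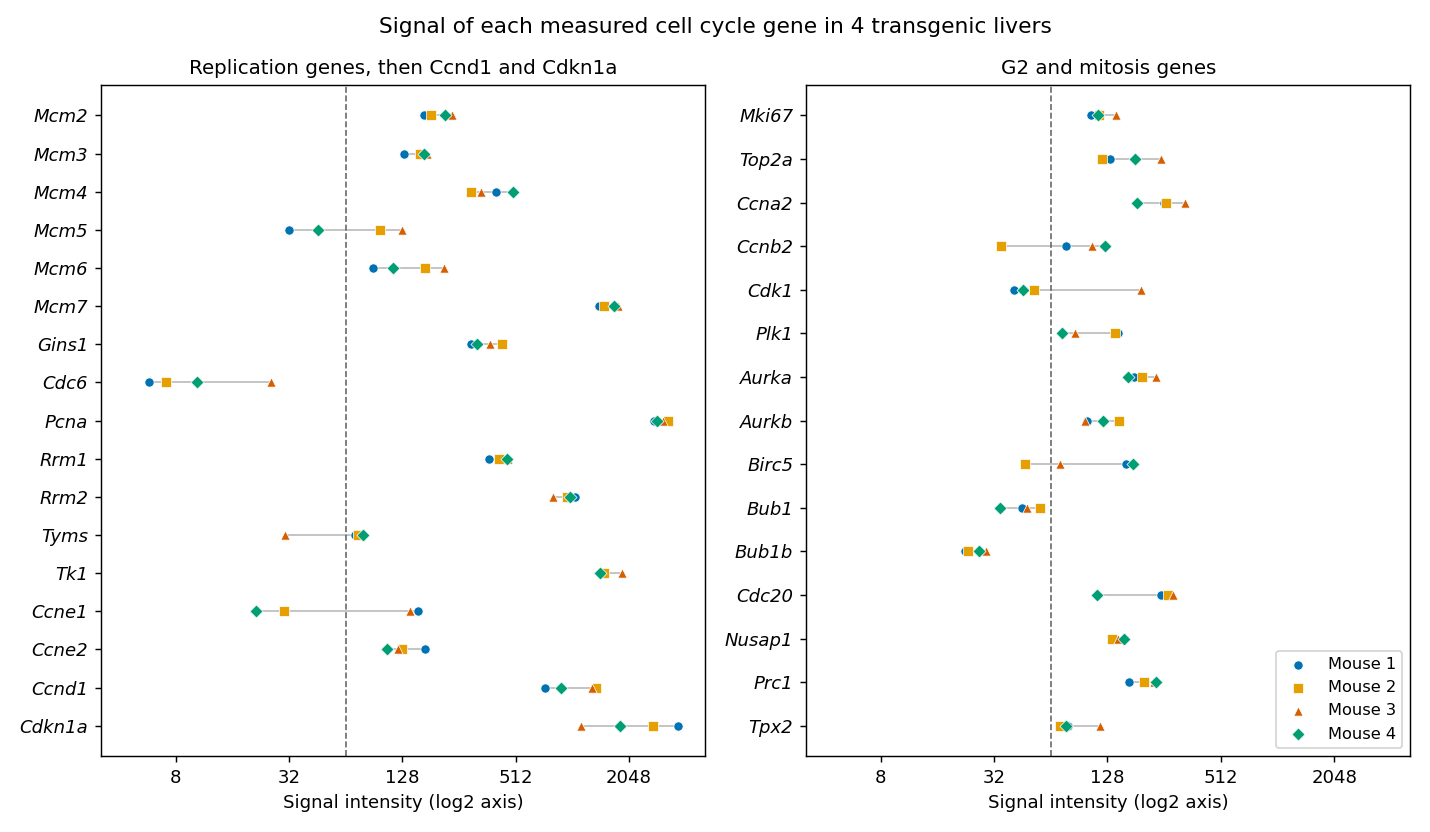
Signal intensity on a log2 axis for each of the 32 measured genes, with 1 point per mouse, a grey line from the lowest to the highest mouse and a dashed line at 64. Pcna, Nusap1 and Bub1b are tight across mice, whereas Ccne1, Cdk1 and Cdc6 spread over more than 4-fold.

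The difference between the 4 livers was measured first as a range. Between the highest and the lowest mouse, 11 of 32 genes differed by more than 2-fold, against 27% of all genes. Among genes with a mean of at least 64 the count was 9 of 28, against 18.3%. The median SD between mice was 0.30 log2 for the 32 genes and 0.26 log2 for all genes. Low signals vary more, so each SD was also divided by the SD that limma's prior gives for that mean level. The median of this relative spread was 0.91 for the 32 genes (0.89 for replication, 0.63 for mitosis) and 0.96 for all genes. Among genes with a mean of at least 64 it was 0.85 for 13 replication genes, 0.96 for 13 mitotic genes and 0.96 for all genes. The low mitotic value thus depended on the genes under 64. In limma's test of excess spread 0 of the 32 passed at an adjusted p of 0.05, against 0% of the 22626 probe sets tested. Even the muscle marker Mb, with a 91.8-fold range and 11.6 times its prior SD, did not pass (limma, adjusted p = 0.25). Not passing is therefore weak evidence that a gene was even between the 4 livers. An unadjusted p under 0.05 was found for 1 of 32, Cdkn1a, against 3.71% of probe sets. Since no gene passed, what follows describes levels and does not call changes.

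The series-wide values that bear on the mice are these. Median signal ran from 267 in mouse 4 to 305 in mouse 3. Mouse 1 stood apart on several control readings: its 18S ribosomal signal was 9.95 log2 against 8.75 to 8.98 in the other mice, and its Gapdh 3′ to 5′ ratio was 1.67 log2 against 1.94 to 2.03. Of 9 skeletal muscle markers 0 were above the other mice in mouse 1, with a median difference of -3.44. Of 10 hepatocyte markers 9 were measured, all with a mean of at least 64, with summed signals of 375930 to 425625 and a median SD of 0.10 log2. The Abca1 probe sets, 3 in number, had SDs of 0.17 to 0.25 log2 between the mice.

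Among replication genes, Pcna and Tk1 varied little. Pcna, the sliding clamp that holds polymerases on DNA, had signals of 2773.7, 3311.8, 3083.7 and 2899.8 in mice 1 to 4. These 4 livers lay within 1.19-fold, at 11.56 ± 0.11 log2 (SD, n = 4). Tk1, thymidine kinase of the salvage pathway, had 1459.7, 1500.2, 1869.9 and 1433.3, with mouse 3 above the rest by itself. Pcna also serves DNA repair, and its signal is not specific to dividing cells.

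The MCM2-7 helicase is a ring of 6 subunits, and on the brightest probe sets 5 of its 6 genes were lowest in mouse 1, where 28.9% of all genes were lowest. Mcm2 had 166.5, 181.7, 234.0 and 215.9 in mice 1 to 4. Mcm3 had 130.9, 159.2, 172.7 and 166.6, and Mcm7 had 1412.4, 1505.6, 1795.5 and 1710.0. In these 3 genes mouse 1 was lowest and mouse 3 highest, and the whole range was 1.27-fold to 1.41-fold. Mcm5 had 32, 96.9, 127.2 and 45.4, and Mcm6 had 89.4, 168.3, 214.0 and 114.8. Both had the same lowest and highest mouse over wider ranges, 3.98-fold and 2.39-fold, with mice 1 and 4 below mice 2 and 3. Mcm4 went its own way, with 403.2, 297.8, 334.5 and 495.9, so that mouse 2 was lowest and mouse 4 highest. The further probe sets did not all agree. The further one of Mcm2 was lowest in mouse 2, at 96.7, and 3 of the 5 of Mcm3 were lowest in mouse 4. The further one of Mcm6 read 29.6, 33.6, 205.7 and 185.2. It kept mouse 1 lowest and mouse 3 highest, but put mouse 2 low and mouse 4 high. Of the 4 Mcm7 probe sets 2 were lowest in mouse 1, another was lowest in mouse 2, and the dimmest ran the other way, with 219.0, 205.6, 177.6 and 182.5. None of the 6 genes passed the test (limma, adjusted p of 0.977 to 1.00 for the 6 genes).

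Factors that load or accompany the ring had no common order of mice. Gins1, a subunit of the GINS complex that travels with the helicase, had 297.4, 431.9, 373.2 and 320.0 in mice 1 to 4, lowest in mouse 1 and highest in mouse 2. Cdc6, which loads MCM rings at origins, had 5.8, 7.1, 25.7 and 10.4, values so low that their 4.43-fold range has little weight.

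Of the genes that supply deoxynucleotides, Rrm1 and Rrm2 varied little between mice on their brightest probe sets. Rrm1, the large subunit of ribonucleotide reductase, had 368.9, 419.2, 466.2 and 462.6 in mice 1 to 4, and Rrm2, the small subunit made in S phase, had 1063.1, 958.0, 812.0 and 1000.2. Their orders of mice were opposed: mouse 1 was lowest and mouse 3 highest for Rrm1, and the reverse held for Rrm2. The Rrm2 values came from a probe set whose identifier ends in _x_at, a mark of possible cross-hybridization. The other Rrm2 probe sets read 204.1, 271.4, 257.5 and 262.5 on one and 210.1, 64.9, 205.4 and 251.8 on another, each lowest in a different mouse. Tyms, thymidylate synthase, had 71.4, 74.5, 30.5 and 78.8, with mouse 3 below the others on that probe set. Another Tyms probe set read 61.3, 12.7, 111.4 and 13.8, with mouse 3 highest, and the last read 30.6, 4.0, 8.7 and 31.3, with mouse 2 lowest.

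The E cyclins, which activate Cdk2 at the entry to S phase, differed from each other. Ccne1 had 154.8, 30.2, 140.5 and 21.4 in mice 1 to 4, the widest range of the 32 genes at 7.23-fold. Mice 1 and 3 lay well above mice 2 and 4, on 1 probe set, with mice 2 and 4 under 64, and the gene did not pass the test (limma, unadjusted p = 0.071, adjusted p = 0.977). Ccne2 had 168.1, 126.9, 121.9 and 106.4, a range of 1.58-fold with mouse 1 again highest and mouse 4 lowest.

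Among genes of G2 and mitosis, 5 of 15 differed by more than 2-fold between mice, against 27% of all genes. The count for replication genes was also 5 of 15. Mki67, which codes for the Ki-67 antigen of proliferating cells, had 105.3, 116.1, 141.9 and 114.7 in mice 1 to 4. Nusap1, a spindle microtubule protein, had 137.7, 135.4, 145.0 and 156.9 and the smallest SD of all 32 genes, at 7.17 ± 0.10 log2 (SD, n = 4). Ki-67 was highest in mouse 3, and Nusap1 was nearly flat on this probe set. Its further probe set read 114.1, 160.9, 51.6 and 93.0, a range of 3.12-fold with mouse 3 lowest.

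The cyclins and kinase that start mitosis came next. Cdk1, the kinase that drives entry into mitosis, had 40.8, 51.9, 191.8 and 45.4 in mice 1 to 4. Mouse 3 stood alone, and the other 3 livers were under 64. Ccna2, cyclin A, had 254.3, 262.1, 329.7 and 183.1, also highest in mouse 3. Its further probe set read 110.7, 279.5, 288.2 and 124.6, with mouse 2 close to mouse 3 and mouse 1 lowest. Ccnb2, cyclin B2, had 77.1, 34.8, 106.3 and 123.8, with mouse 2 lowest and mouse 4 above mouse 3. Each missed the threshold (limma, adjusted p = 0.977 for each), and Cdk1 rested on 1 probe set. Top2a, the topoisomerase that untangles sister chromatids, had 131.6, 120.2, 245.2 and 179.9, and again mouse 3 was highest. A further Top2a probe set read 7.4 to 14.4 and was highest in mouse 2.

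Mitotic kinases and the chromosomal passenger proteins did not follow 1 order. Plk1, polo-like kinase 1, had 145.9, 140.1, 85.7 and 73.2 in mice 1 to 4, so mice 1 and 2 lay above mice 3 and 4. Aurka, a spindle pole kinase, had 176.5, 195.3, 231.0 and 164.5, with mouse 3 highest. Aurkb, the kinase of the passenger complex, had 99.6, 146.9, 97.0 and 121.2, with mouse 2 highest, while its further, dimmer probe set was highest in mouse 3 at 40.2. Its partner Birc5, survivin, had 161.2, 46.7, 71.5 and 173.9, with mouse 2 lowest.

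Spindle checkpoint genes Bub1 and Bub1b hold anaphase back until chromosomes are attached. Bub1 had 45.0, 55.8, 47.6 and 34.2 in mice 1 to 4, and Bub1b had 22.4, 23.3, 29.1 and 26.7. Both genes were under 64 in every mouse, and on these probe sets neither gene set a mouse apart. The further Bub1 probe set read 7.4, 32, 7.7 and 3.5, with mouse 2 highest, at signals so low that the difference has little weight. Cdc20, which activates the anaphase-promoting complex, had 247.5, 267.3, 283.6 and 112.7, with mouse 4 alone below the others on that probe set. Its other probe sets did not show a low mouse 4: one read 152.7, 168.5, 221.3 and 177.1, lowest in mouse 1, and one read 65.7, 25.9, 17.1 and 28.2, lowest in mouse 3. The spindle proteins Prc1 and Tpx2 ranged over 1.39-fold and 1.63-fold, with Prc1 highest in mouse 4 at 230.7 and Tpx2 highest in mouse 3 at 116.8. A dimmer Tpx2 probe set was lowest in mouse 3, at 7.1.

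Across the list, mouse 3 was most often the highest liver. Of the 32 genes 16 were highest in mouse 3, against 33.5% of all genes. The counts for mice 1, 2 and 4 were 5, 5 and 6, against 17.4%, 29.8% and 19.3% of all genes. The lowest value fell in mouse 1 for 14 of 32 genes, against 28.9%, and in mice 2, 3 and 4 for 6, 4 and 8 genes, against 20%, 20.4% and 30.7%. Each mouse was then set against the mean of the other 3. In mouse 3, 12 of 15 mitotic genes lay above the other mice with a median of 0.34 log2 (1.27-fold), and 11 of 15 replication genes did so with a median of 0.19 log2 (1.14-fold). For all genes the share above in mouse 3 was 59.8% and the median 0.09. When the arrays were shifted to the same median signal, the mitotic count became 10 of 15 with a median of 0.23, the replication count 9 of 15 with a median of 0.07, and the share of all genes 47.2% with a median of -0.03. When a gene's probe sets were averaged, the mitotic count in mouse 3 was 9 of 15 with a median of 0.27 and the replication count 12 of 15 with 0.15, against 60.8% and 0.10 for all genes. The mitotic median of mouse 3 was 0.28 to 0.32 when any 1 other mouse was left out. The replication median ran from 0.08, without mouse 1, to 0.26, without mouse 4. These values carry no test, because the genes were chosen with results known.

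In mouse 1, 5 of 15 replication genes and 6 of 15 mitotic genes lay above the other mice, against 42.8% of all genes, with medians of -0.24 and -0.13 against -0.05. The mitotic median of mouse 1 was -0.02 without mouse 3, -0.21 without mouse 4 and -0.00092 after quantile normalization, and the replication median was -0.12 when probe sets were averaged. In mouse 2 the counts were 7 and 6 of 15, against 57.9%, with medians of -0.03 and -0.04 against 0.06. In mouse 4 they were 8 and 7 of 15, against 42.9%, with medians of 0.03 and -0.07 against -0.06. The medians of mice 2 and 4 changed sign under other settings. In mouse 2 the mitotic median was 0.08 without mouse 3 and the replication median 0.02 without mouse 4. In mouse 4 the replication median was -0.14 without mouse 1, and the mitotic median 0.07 with arrays at the same median. Mouse 1 is the animal with the highest 18S signal and the lowest Gapdh 3′ to 5′ ratio, whose part in its replication values was not tested.

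**Figure D3:**
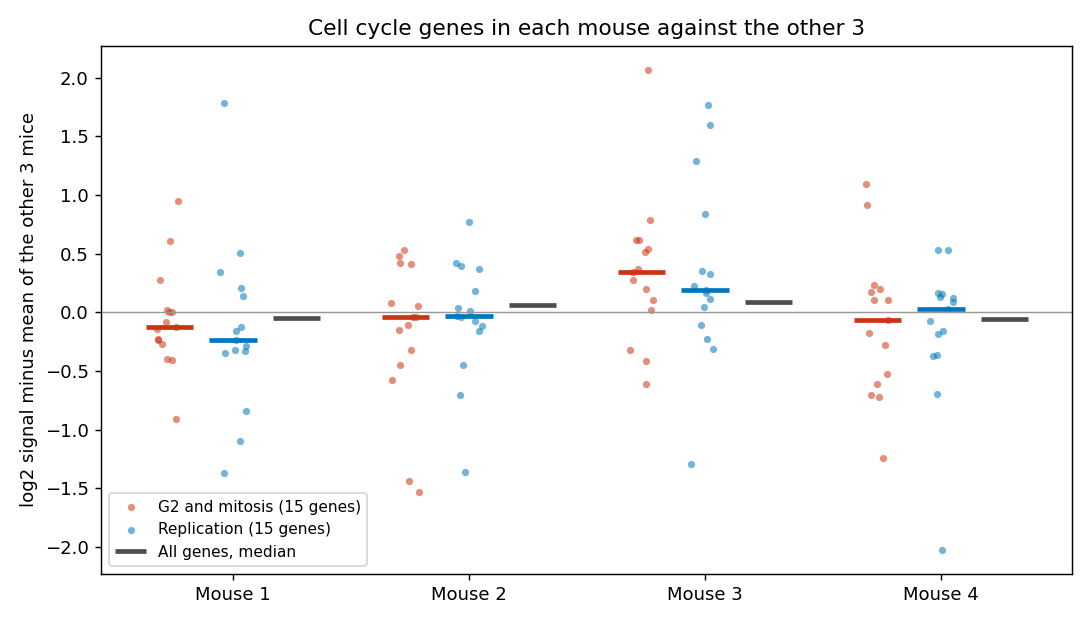
log2 signal of each gene in a mouse minus its mean in the other 3 mice, for 15 genes of G2 and mitosis and 15 replication genes, with thick lines at the medians and the median of all genes beside them. Mitotic genes sit highest in mouse 3 (median 0.34, all genes 0.09), and single genes reach beyond 1 log2 in each direction.

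Markers of other cell types are given for mouse 3 beside the all-gene share of 59.8% above and median of 0.09, and 0 of them passed the test after adjustment (limma). Of 10 macrophage markers 9 were above the other mice there, with a median of 0.18 log2 and a summed signal of 40980, against 32404 to 39212 in the other mice. Of 6 B and plasma cell markers 5 were above, with a median of 0.34 and a sum of 1927, against 1284 to 1550. The T and NK cell list had 5 of 9 above and a median of 0.14, and its members Cd3d and Cd3e had mean signals of 41.8 and 61.1. Neutrophil and myeloid precursor markers had 5 of 8 above with a median of 0.35, bile duct markers 6 of 7 with 0.46 (in mouse 2 also 6 of 7, with 0.43, and in mouse 1 1 of 7, with -0.60), and stellate and fibroblast markers 5 of 8 with 0.44. Endothelial markers had 3 of 8 above with -0.06, erythroid precursor markers 2 of 6 with -0.27, adipocyte markers 2 of 5 with -0.24 and hepatocyte markers 0 of 9 with -0.05. Muscle markers had 8 of 9 above with 0.79, although their summed signal of 6247 in mouse 3 was lower than the 9068 of mouse 2 and the 8204 of mouse 4, with 866 in mouse 1. Pancreas markers 0 of 7 with -1.10. The part of any of these cells in the cell cycle values was not tested.

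Ccnd1, the cyclin that takes hepatocytes out of G0, had 733.0, 1363.1, 1302.0 and 892.3 in mice 1 to 4. Mice 2 and 3 lay above mice 1 and 4, over a 1.86-fold range (10.02 ± 0.43 log2, SD, n = 4), and the gene did not pass (limma, unadjusted p = 0.068, adjusted p = 0.977). Its other probe sets split. One read 425.8, 679.9, 553.3 and 534.2, again lowest in mouse 1 and highest in mouse 2, and the other read 465.1, 344.3, 227.2 and 300.4, highest in mouse 1 and lowest in mouse 3.

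Cdkn1a, which codes for p21, the inhibitor of cyclin-dependent kinases induced by p53, had the widest spread of the 32 genes for its level. Signals were 3719.0, 2749.0, 1144.4 and 1843.8 in mice 1 to 4. Mouse 1 was highest and mouse 3 lowest, by 3.25-fold, at 11.07 ± 0.74 log2 (SD, n = 4) and 4.07 times the prior SD. The further probe set read 529.1, 257.3, 51.7 and 42.5, with mice 1 and 2 again above mice 3 and 4. Cdkn1a did not pass limma's test after adjustment over all probe sets (unadjusted p = 0.0056, adjusted p = 0.977), and neither did the further probe set (unadjusted p = 0.0068, adjusted p = 0.977). Mouse 3 held the lowest Cdkn1a on the brighter probe set, while the further probe set was lowest in mouse 4. Mouse 3 also held the highest signal of 16 of 32 genes on the list, against 33.5% of all genes. This pairing was seen in 1 animal, and a link between the 2 was not tested. Of 12 genes known as p53 targets, 4 were above the other mice in mouse 1, against 42.8% of all genes, with a median of -0.04 against -0.05. In mouse 3, 8 of 12 were above, against 59.8%, with a median of 0.13 against 0.09, so both counts lay near those of all genes. The RefSeq promoter entries of Cdkn1a, 2 in number, held 0 of the motifs searched.

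Whether several probe sets of 1 gene report the same difference between mice was tested for the 18 genes with 2 or more. The test compares the part of the difference that probe sets share with their disagreement (an F-test with variances moderated by limma). Of the 18 genes 0 passed at an adjusted p of 0.05, against 0.343% of the 4956 genes tested, and 2 had an unadjusted p under 0.05, against 8.92%. These were Cdkn1a (unadjusted p = 0.0038, adjusted p = 0.24) and Mcm3 (unadjusted p = 0.043, adjusted p = 0.55). All probe sets of a gene were highest in the same mouse for 7 of 18 genes, against 23.9% of genes, and shared both the highest and the lowest mouse for 4 of 18, against 8.17%. The 4 were Mcm4, Mcm6, Rrm1 and Bub1, although the Mcm6 probe sets put mice 2 and 4 in opposite order. Mcm4 read 185.0, 147.9, 148.7 and 197.7 on its further probe set, so its low mouse 2 and high mouse 4 appeared on both. Probe sets of 1 gene share the RNA and the array, so agreement does not separate animal from array.

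**Figure D4:**
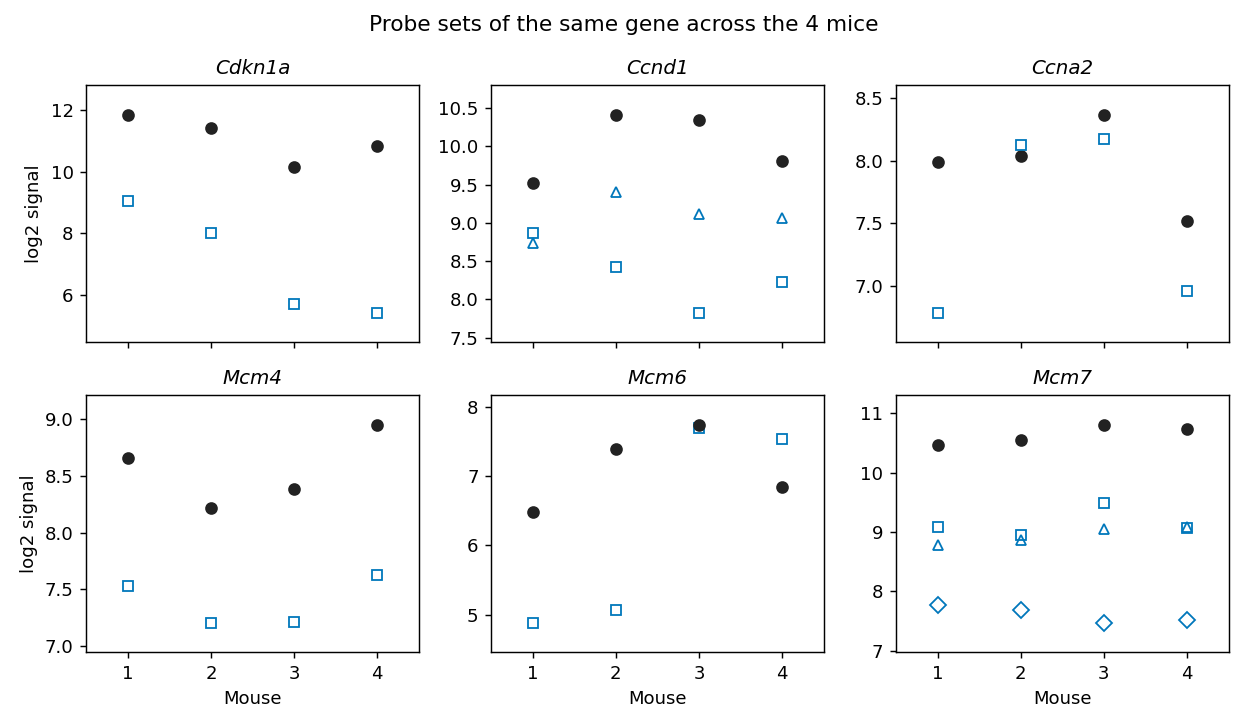
log2 signal in each mouse for every probe set of 6 genes, with filled circles for the probe set of highest mean level and open symbols for the others. Both probe sets of Cdkn1a are higher in mice 1 and 2 than in mice 3 and 4, those of Mcm4 share their order, and 1 of the 3 of Ccnd1 runs against the others.

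Other genes of the cell cycle, from lists written with earlier results of these livers known, were tested in the same fit. Of 39 further replication genes measured, 2 had an unadjusted p under 0.05 and 0 passed after adjustment. For mitosis this was 3 and 0 of 40, for G1 control 1 and 0 of 21, and for p53 targets 0 and 0 of 12 (limma). Among all 22626 probe sets tested, 3.71% had an unadjusted p under 0.05 and 0% passed (limma). In mouse 3 the further replication genes had 27 of 39 above the other mice and a median of 0.13, and the further mitotic genes 26 of 40 and a median of 0.18, against 59.8% and 0.09 for all genes. In mouse 2 the further mitotic genes had 28 of 40 above and a median of 0.21, against 57.9% and 0.06 for all genes, where the 15 mitotic genes on the main list had -0.04. Exocrine pancreas markers had 7 of 7 above in mouse 2 with a median of 1.68, and adipocyte markers 4 of 5 with 1.23, and their part in these values was not tested.

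The widest of these genes were named by their SD among those with a mean of at least 64. E2f8, an atypical E2F that represses E2F targets and takes part in hepatocyte polyploidy in mice, had 221.3, 359.8, 565.8 and 953.1 in mice 1 to 4, 4.31-fold from mouse 4 to mouse 1. In G1 control it was followed by the Cdk4 and Cdk6 inhibitors Cdkn2d, at 159.6 to 297.3, and Cdkn2c, at 538.4 to 951.7, both lowest in mouse 4. In replication the widest were Dtl, a substrate receptor that targets Cdt1, at 179.7, 190.6, 93.0 and 18, Pole, a polymerase epsilon subunit, at 19.8 to 213.5, and Timeless, a fork protection protein, at 43.1 to 207.1. The last of these, like Pole, was lowest in mouse 1 and highest in mouse 2. In mitosis the kinetochore gene Spc25 had 68.5, 275.3, 118.5 and 408.4, Hmmr had 453.3, 218.3, 585.7 and 175.9, and the condensin gene Ncaph had 159.4, 330.1, 375.6 and 202.6. Spc25 and Hmmr lay on opposite sides of their means in every mouse. Among p53 targets the widest were Sesn2, at 122.2 to 282.6, Pmaip1, at 69.7 to 124.6, and Trp53inp1, with 5044.2, 4915.8, 3464.7 and 4852.9. Trp53inp1 had the same order of mice as the brighter Cdkn1a probe set, with mouse 1 highest, then mouse 2, mouse 4 and mouse 3, over a range of 1.46-fold. The other named p53 targets did not share it. Sesn2 was highest in mouse 2 and lowest in mouse 4, and Pmaip1 was highest in mouse 4 and lowest in mouse 1.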

How the data were processed

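Liver RNA of 4 ABCA1-transgenic mice was measured on 1 biotin-labelled array per mouse, after amplification of 2 ug of total RNA with the RiboAmp procedure, per the labels' protocols. The deposited values are linear signal intensities, 1 per probe set and array. The submitters' processing notes name RMA, with no version, but the deposited intensities are linear, reach under 1 and have a trimmed mean (2% at each end) of 1000 on every array. Their background step is not given in the labels.

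The log2 of the deposited intensities was taken as it stood. The 64 control probe sets were left out, leaving 22626, of which 20380 had 1 gene symbol, 691 several and 1555 none in the platform annotation. Symbols of the 59 member probe sets matched RefSeq with 0 changes. limma 3.58.1 in R 4.3.3 compared each probe set's variance between mice with a prior that follows mean level (robust, upper-tail F, Benjamini-Hochberg over all probe sets, threshold 0.05). The same tool tested agreement of probe sets within genes. Both were tested on simulated data. The number of arrays limits the precision.

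The members and lists were chosen with earlier results of these data known. All measured members are named. In further cell cycle lists the 3 genes with the largest SD at a mean signal of at least 64 are named. Alternatives were quantile normalization, arrays at the same median, filters and floors at 64, a pseudocount of 16, other priors, other probe set rules, thresholds of 32 and 128, and leaving out each mouse. Probe-level files were not used here.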

Additional observations from a re-analysis of the deposited data

Results flagged for a closer look

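In each of these a single mouse lay far from the other 3 by Dixon's criterion on the log2 scale, which chance meets in about 1 of 20 groups of 4. It was applied to 86 sets of 4 values and met by 7, against 4.3 by chance if the sets were independent and not selected. They were neither, since some are probe sets of the same gene and some genes were named for a large SD. No excess is therefore read from the count. Cdk1 had 191.8 in mouse 3, against 40.8 to 51.9 in the other mice. Tyms had 30.5 in mouse 3, against 71.4 to 78.8, but another of its probe sets was highest in mouse 3, at 111.4. Cdc20 had 112.7 in mouse 4, against 247.5 to 283.6, but another of its probe sets read 177.1 there, against 152.7 to 221.3. A further probe set of Aurkb read 6.7 in mouse 4, against 32.3 to 40.2, and a further probe set of Rrm2 read 64.9 in mouse 2, against 205.4 to 251.8. Trp53inp1, a p53 target, had 3464.7 in mouse 3, against 4852.9 to 5044.2. Of the markers, Mb, myoglobin, had 14.9 in mouse 1, against 701.9 to 1367.7.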

How the results depend on the processing

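No member passed either limma test under any alternative run. The adjusted p of Cdkn1a for excess spread ran from 0.38 to 0.98 over the alternatives, and that for probe set agreement from 0.13 to 0.63. With a constant prior, which ignores mean level, the unadjusted p of Cdkn1a for excess spread was 0.15 (limma). The 1 member under 0.05 was then Ccne1 (limma, unadjusted p = 0.046), so the place of Cdkn1a depended on the prior. Over all probe sets the count past the excess spread test was 0 under every alternative but the restriction to a mean signal of at least 64, which tests fewer probe sets and gave 6. Genes past the agreement test numbered 17, 38 under that restriction, and 0 to 4 with 1 mouse left out, where the fit has fewer samples. Members with a mean signal of at least 64 numbered 24 when a gene's probe sets were averaged, and 27 or 28 with 1 mouse left out. The averaging took log2 values over probe sets and mice, whereas the main count took mean signals. Ccne1, with 1 probe set and a mean of 5.94 log2, left the count for that reason. On the coding strand alone 8 of 13 mitotic genes held both motifs, against 2.93% of all genes. The median differences of mice for replication and mitosis moved by less than their SD between mice under each alternative run, though those of mice 2 and 4 crossed 0. That SD was taken over the 4 medians themselves, so it is a wide limit and does not show stability. In mouse 4 the mitotic median of -0.07 became -0.28 when a gene's probe sets were averaged and 0.15 after quantile normalization. The 4 genes under 64 had medians of -0.11, 0.13, 0.19 and 0.07 in mice 1 to 4, which changed sign, and the cause was not tested. Quantile normalization gave 0.052 in mouse 1, -0.11 in mouse 2 and -0.025 in mouse 3. In mouse 2 averaging a gene's probe sets gave -0.43, the mean over genes gave -0.0050, and leaving out 1 mouse gave -0.040 to 0.105. In mouse 4 leaving out 1 mouse gave -0.171 to 0.168, and -0.083 came without mouse 2. No paired analysis was possible because all samples belong to 1 group. Signals under 64 have the least precision.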
